A study of Homo sapiens with 15 samples.

Results

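The genes of the proteasome were followed in IMR32 neuroblastoma cells while a hairpin RNA against CDK2 was switched on. Members were all probe sets of the array whose single gene symbol begins with PSMA, PSMB, PSMC, PSMD, PSME, PSMF or PSMG and a digit, with PSMD10 left out by the rule. The rule used the symbols alone and found 95 of the 54675 probe sets, for 49 genes. Of these genes, 41 encode parts of the proteasome, its activators, its inhibitor or its assembly factors, and 8 share only the letters. A filter on low signal, a mean over all arrays of about 16.6 intensity units, was passed by 37 of the 41 and by 5 of the 8. All 37 also lay above that level in the 0 h arrays taken alone and in the 72 h arrays taken alone.

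The proteasome is the protease that degrades proteins marked with ubiquitin. Its 20S core is a barrel of α rings, which gate the entry, and β rings, which carry the proteolytic sites. The 19S regulatory particle caps the barrel: a ring of ATPases unfolds the substrate, non-ATPase subunits of its base receive ubiquitin, and a lid removes the ubiquitin chain. Dividing cells also need the particle to destroy cyclins and CDK inhibitors at set points of the cell cycle, and transcription factors of the NFE2L family are known to control its genes together.

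All 15 arrays came from 1 clone of IMR32, an established human neuroblastoma line with amplified MYCN. The clone carried pcDNA6/TR, which makes the tetracycline repressor from a CMV promoter, and pTER/CDK2, which makes the hairpin, so the 0 h cells held both constructs too. Doxycycline at 100 ng/ml induced the hairpin, and 3 arrays were taken at each of 5 times, 0, 8, 24, 48 and 72, given without a unit in the labels and read here as hours. After 0 h every culture had received doxycycline and this hairpin, so that the effects of the knockdown, of the drug and of time cannot be told apart. Whether the 3 arrays of a time stand for separate cultures is not stated, and p-values therefore cover the spread among these arrays alone, which may be technical.

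CDK2, the target, read 246, 236 and 214 intensity units at 0 h, 101, 92.6 and 90.2 at 8 h, and 30, 40 and 20.2 at 72 h. Its log2 change was -1.16, -1.36, -1.94 and -2.45 at 8, 24, 48 and 72 h (SE 0.14 each, all past the threshold). The trimmed mean signal was 100.01 on every array, and the median signal ranged from 15 to 20.5. By time, the median signal was 15.6 to 16.9 at 0 h, 15 to 18.3 at 8 h, 17.1 to 18 at 24 h, 17.5 to 19.3 at 48 h and 17.3 to 20.5 at 72 h. The 3′ to 5′ ratio ranged from 0.974 to 1.07 for GAPDH and from 1.10 to 1.35 for ACTB. The ACTB ratio was 1.10 to 1.19 at 0 h, 1.10 to 1.30 at 8 h and 1.20 to 1.24 at 24 h. At 48 h it was 1.15 to 1.24, and at 72 h 1.21 to 1.35. What these shifts with time contribute to the changes below was not tested. Of 15 noradrenergic neuroblastoma markers 13 were found and 11 passed the filter, MYCN at 4076 to 6128 among them. TH and STMN2 lay below it, at 0.5 to 9.5 and 1.3 to 46.9. The summed signal of the 13 noradrenergic markers found was 11032 to 11392 at 0 h and 14140 to 15027 at 72 h. That of 8 fibroblast markers, of which COL1A2, COL3A1 and DCN lay below the filter, was 1112 to 1213 at 0 h and 1427 to 1551 at 72 h. No immune marker of the 8 found passed, with sums of 29.2 to 76.9 and none at exactly 0. Only 1 of 6 endothelial and 1 of 6 epithelial markers passed. The part of the marker lists that moved with time in the results that follow was not tested.

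Levels of most proteasome genes fell after 8 h. Changes are differences of log2(signal + 16) between group means of 3 arrays, which understate the change of dim genes, and a gene was called at a limma p-value under 0.05 after Benjamini-Hochberg adjustment over all 11774 genes tested. At 8 h none of the 37 genes was called, while 0.357% of all genes were called lower and 0.0934% higher. At an unadjusted p under 0.05 the count was 0 lower and 1 higher, and 0 genes were called in each fit that left out 1 array. At 24 h 26 of the 37 were lower and none was higher, against 5.72% lower and 7.74% higher among all genes. At 48 h 31 were lower and 2 higher, against 17.7% and 26.3%. At 72 h 32 were lower and 2 higher, against 22.7% and 32.8%. The median change of the 37 genes was -0.01, -0.29, -0.48 and -0.57 at the 4 times, beside 0.02, 0.05, 0.08 and 0.10 for all genes. These comparisons share the 0 h arrays. In RNA of a whole culture, fewer cells of a kind and less RNA per cell cannot be told apart.

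The count at 24 h leaned on single arrays. It was 16 in place of 26 without 0 h replicate 3, and likewise 16 without 24 h replicate 3. The 24 h calls of PSMA2, PSMA7, PSMB1, PSMB2, PSMB3, PSMB7, PSMD3, PSMD8 and PSMD9 were each lost when any 1 of 3 arrays was left out (0 h replicate 1, 0 h replicate 3, 24 h replicate 3), and the PSMB5 call when either of the latter 2 was. The median over the 37 genes was nevertheless negative on each array: -0.26, -0.23 and -0.37 on the 3 arrays at 24 h, -0.38, -0.51 and -0.46 at 48 h, and -0.62, -0.59 and -0.46 at 72 h, relative to the 0 h mean. The arrays at 8 h lay at -0.05, -0.01 and 0.04, apart from all 9 later arrays. Signals at 72 h lay below all 0 h signals on all 3 arrays for 32 of the 37 genes, against 25.1% of all genes.

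Most of the proteasome probe sets were bright. Of the 37 genes, 27 belonged to the 10% of all genes with the highest mean log2 value. This brightest 10% was itself called lower more often than all genes, at 12.2%, 33.7% and 40.7% for 24, 48 and 72 h. Among the 27 proteasome genes in it 22, 25 and 26 were lower at these times, with median changes of -0.33, -0.51 and -0.65 beside -0.04, -0.07 and -0.09 for the brightest 10% as a whole. Among the 10 dimmer ones 4, 6 and 6 were lower, beside 5.72%, 17.7% and 22.7% of all genes, bright ones included. The medians of these 10 were -0.13, -0.24 and -0.23. They also held the 2 genes called higher at 48 and 72 h, PSME1 and PSMF1.

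**Figure D1:**
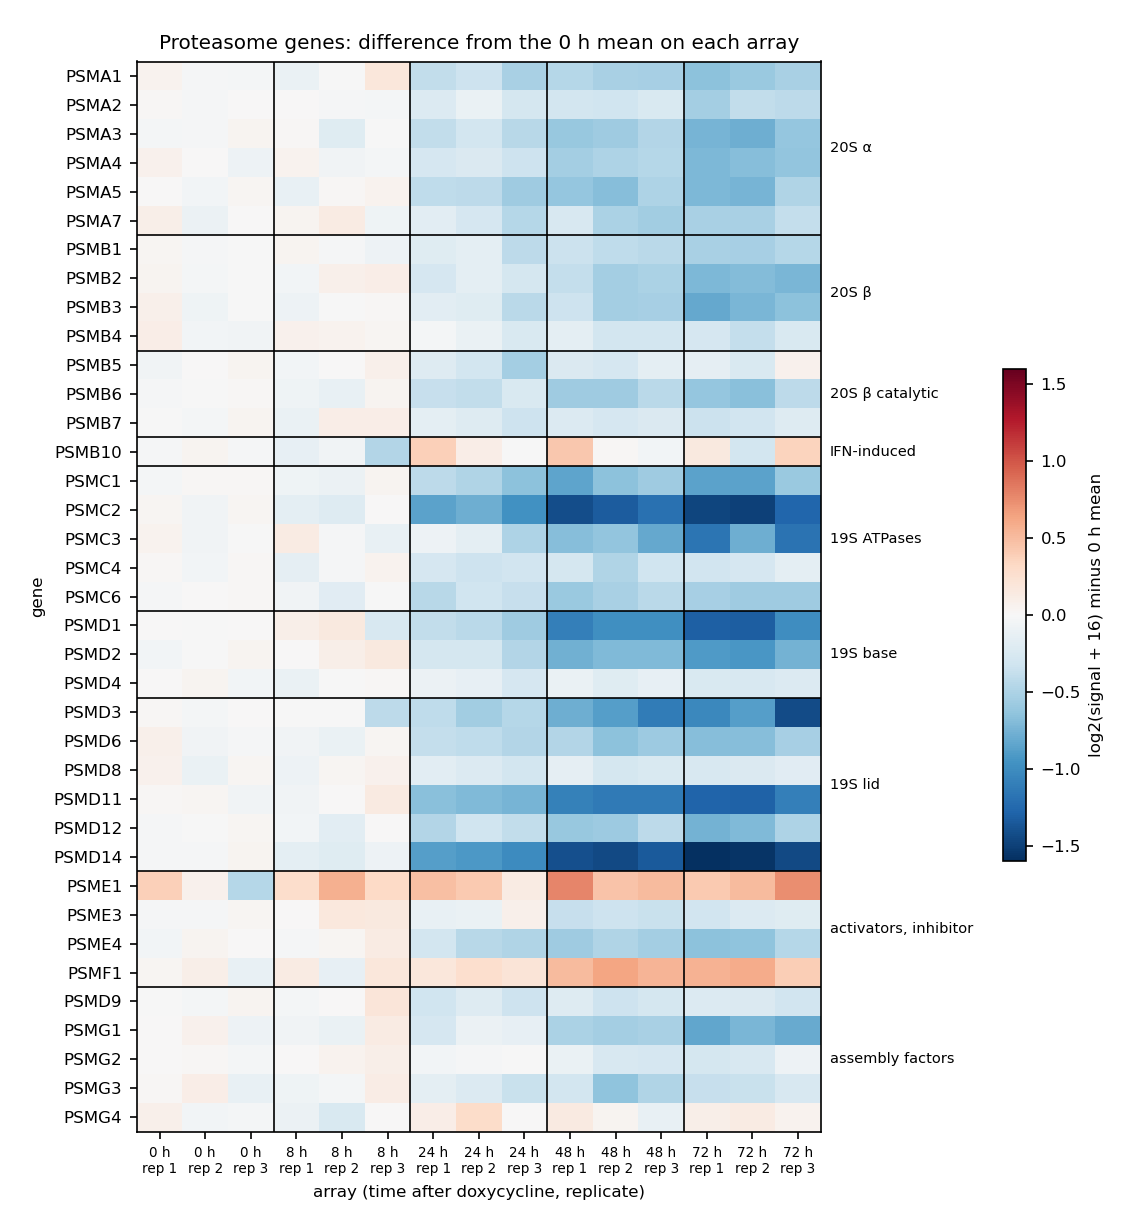
Each row is 1 of the 37 proteasome genes above the filter and each column 1 array, and the colour gives log2(signal + 16) minus the gene's mean at 0 h, blue for lower and red for higher. The arrays at 0 and 8 h are pale in nearly all rows, and the blue of the later arrays is deepest for PSMD14 and PSMC2, which stood at -1.55 and -1.41 at 72 h.

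Between successive times the falls came mainly from 8 h to 24 h. The median change of the 37 was -0.28, -0.14 and -0.06 over the last 3 steps, from 8 h on. From 8 h to 24 h 21 of the 37 genes fell and none rose, beside 3.24% and 2.54% of all genes. The count was 12 without 8 h replicate 3 and 11 without 24 h replicate 3. From 24 h to 48 h 11 fell, beside 10.5% of all genes, and 1 rose, the inhibitor gene PSMF1, beside 12.4%. From 48 h to 72 h 3 fell (8.11%), near the 6.14% of all genes, and none rose, beside 4.54%. Those 3, PSMB2, PSMB3 and PSMG1, changed by -0.24, -0.26 and -0.27 (SE 0.06, 0.08 and 0.07). The last count was 0 without 48 h replicate 1, 72 h replicate 1 or 72 h replicate 3, and 1 without 48 h replicate 2 or 48 h replicate 3. Over the whole time course limma's F test called 35 of the 37 genes, and 57% of all genes. The exceptions were PSMB10 and PSMG4.

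The 19S regulatory particle held the greatest falls. Of its 14 measured subunits 12, 13 and all 14 were lower at 24, 48 and 72 h. The shares lower were 5.72%, 17.7% and 22.7% of all genes, and 12.2%, 33.7% and 40.7% of the brightest 10%. The median change of the 14 subunits was -0.41, -0.70 and -0.81 at these times, and the range at 72 h ran from -1.55 to -0.23. For the 13 measured subunits of the 20S core the medians were -0.28, -0.47 and -0.57, with a range from -0.74 to -0.10 at 72 h. The difference between the particles was not tested. A fall of more than 1 on the log2 scale was called for 6 of the 37 genes at 72 h, all of the 19S particle, beside 4.95% of all genes, and for 4 at 48 h, beside 2.51%.

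PSMD14 is the deubiquitinase of the lid, which cuts the ubiquitin chain from the substrate. Its signal was 2198, 2206 and 2306 at 0 h, 2007, 1955 and 2112 at 8 h, 1208, 1174 and 1105 at 24 h, 836, 810.4 and 874 at 48 h, and 707, 744 and 815 at 72 h. The 8 h arrays already lay below all 0 h arrays, at a change of -0.14 that was not called (SE 0.07, adjusted p = 0.53). The 3 groups from 24 h on also lay apart from 0 h without overlap. Each of these 3 lay below the group before it except at 72 h, where the highest array overlapped the 48 h arrays. The change reached -0.94 at 24 h, -1.40 at 48 h and -1.55 at 72 h (SE 0.07, adjusted p = 4.7e-12 at 72 h), 2.93-fold lower and the largest fall among the 37 genes.

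PSMC2 encodes an ATPase of the unfolding ring. It read 2029, 1896 and 2016 at 0 h, 1085, 1150 and 1008 at 24 h, and 706, 692 and 810.0 at 72 h. The 8 h arrays, at 1779, 1716 and 1986, overlapped those at 0 h, and groups at 24 h and later did not. The change was -0.87 at 24 h, -1.32 at 48 h and -1.41 at 72 h (SE 0.08, adjusted p = 1.4e-10), or 2.66-fold lower at 72 h. Its other probe sets gave -1.13 and -1.35 at 72 h, both called. The first read 163, 173 and 179 at 0 h and already 106, 100 and 141 at 8 h, where no probe set was called. The second averaged 51.6 and 34.8 at 0 and 8 h but 14.8, 12.3 and 10.7 at 24, 48 and 72 h, below the filter level. That second probe set passed the filter only through the early groups where it was high, so its call is no further support.

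PSMD11, a scaffold subunit of the lid that contacts the 20S core, read 1688, 1700 and 1596 at 0 h and 677, 670 and 768 at 72 h. No 72 h array came near the 0 h arrays. The change was -0.71 at 24 h, -1.12 at 48 h and -1.22 at 72 h (SE 0.07, adjusted p = 1.2e-10). A second PSMD11 probe set gave -0.79 at 72 h and was also called.

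PSMD1, a large scaffold of the base, read 1358, 1338 and 1350.1 at 0 h, 1439, 1499 and 1127 at 8 h, and 534, 529 and 672 at 72 h. At 8 h 2 arrays lay above those at 0 h and replicate 3 below, and at 72 h all 3 lay below. The change was -0.46, -1.02 and -1.21 at 24, 48 and 72 h (SE 0.10, adjusted p = 2.0e-08 at 72 h). PSMD2, the other large scaffold of the base and a docking site for ubiquitin-like domains, went from 1837, 1888 and 1955 at 0 h to 1003, 981 and 1118 at 72 h. Its change was -0.35, -0.73 and -0.86 (SE 0.07). Both fell further between 24 h and 48 h, by 0.56 and 0.38 on the log2 scale.

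PSMD3, a lid subunit, read 675, 651 and 669 at 0 h and 317, 355 and 237 at 72 h. The 8 h arrays read 663, 665 and 493, so that replicate 3 alone lay lower there. Its change at 24 h was -0.47 (SE 0.13, adjusted p = 0.022), a call that was lost without any 1 of the 3 arrays at 0 h and without 24 h replicate 2 or 24 h replicate 3. At 48 h and 72 h the change was -0.93 and -1.11, with all arrays below 0 h. PSMC3, an ATPase that touches the ubiquitin chain, changed late: -0.24 at 24 h (adjusted p = 0.17), -0.71 at 48 h and -1.05 at 72 h (SE 0.11). Its arrays read 1273, 1173 and 1220 at 0 h, and 533, 705 and 528 at 72 h. PSMC1, an ATPase that helps open the gate of the core, had its fall mostly by 24 h, with -0.52, -0.69 and -0.76 at the 3 times (SE 0.09).

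The other 19S genes fell less. PSMD12 and PSMD6 of the lid stood at -0.65 and -0.63 at 72 h, and the ATPase PSMC6 at -0.55. The ATPase PSMC4, the lid subunit PSMD8 and the ubiquitin receptor PSMD4 were lower by small amounts, with -0.24, -0.23 and -0.24 at 72 h. PSMD4 was called only at 72 h. The calls of these last 3 genes at 72 h were lost under quantile normalisation, where they stood at -0.13, -0.09 and -0.07. That of PSMD8 at 72 h was also lost without 0 h replicate 1 (-0.19). The PSMD8 calls at 24 and 48 h were lost under quantile normalisation too (-0.14 and -0.11). Its 48 h call was also lost without 0 h replicate 1, 0 h replicate 3 or 48 h replicate 2.

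**Figure D2:**
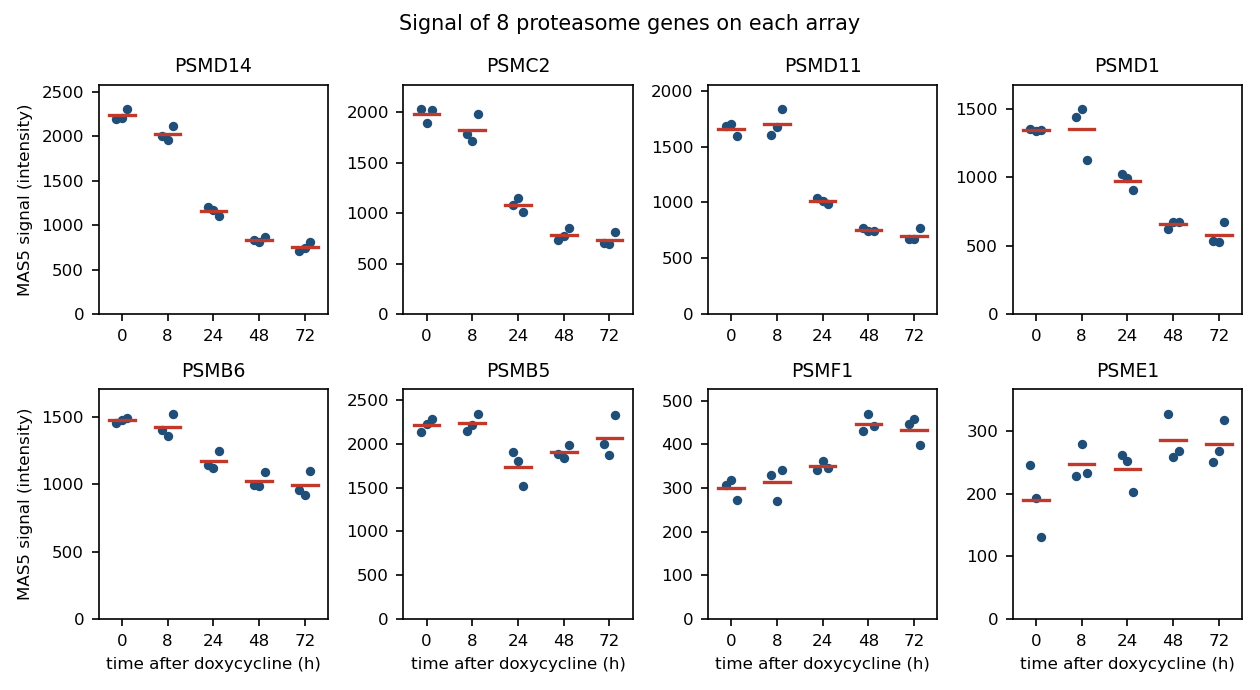
MAS5 signal (intensity, vertical axes from 0) of 8 proteasome genes against the time after doxycycline in hours, 1 point per array and a red bar at the mean of 3 arrays. PSMD14, PSMC2, PSMD11 and PSMD1 lie far below 0 h from 48 h on, PSMB6 falls less, PSMB5 is low at 24 h and overlaps its 0 h arrays again at 72 h, PSMF1 rises, and PSME1 has its lowest array among those at 0 h.

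The windows just before the start of 3 of these 19S genes, and of the activator gene PSME1, which rose, show what sequence lies there. Each line holds the 250 bases before the start that RefSeq annotates on GRCh38.p14, all 4 on the plus strand: chr7:103347393-103347642 for PSMC2, chr2:161308175-161308424 for PSMD14, chr17:39980557-39980806 for PSMD3 and chr14:24135944-24136193 for PSME1. Capitals mark matches, on either strand, to CCAAT, the box bound by NF-Y, and to TGACNNNGC, the core of the antioxidant response element bound by NFE2L1 and NFE2L2.
PSMC2: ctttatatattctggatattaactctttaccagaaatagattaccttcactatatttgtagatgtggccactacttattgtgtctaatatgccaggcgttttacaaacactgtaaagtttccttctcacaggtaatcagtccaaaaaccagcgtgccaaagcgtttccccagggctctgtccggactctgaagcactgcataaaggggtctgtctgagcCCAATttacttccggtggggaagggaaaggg
PSMD14: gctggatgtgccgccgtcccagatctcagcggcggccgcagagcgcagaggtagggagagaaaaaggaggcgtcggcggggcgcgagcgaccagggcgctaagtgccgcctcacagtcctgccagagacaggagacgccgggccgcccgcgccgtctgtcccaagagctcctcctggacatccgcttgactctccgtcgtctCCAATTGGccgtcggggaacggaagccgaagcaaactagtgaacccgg
PSMD3: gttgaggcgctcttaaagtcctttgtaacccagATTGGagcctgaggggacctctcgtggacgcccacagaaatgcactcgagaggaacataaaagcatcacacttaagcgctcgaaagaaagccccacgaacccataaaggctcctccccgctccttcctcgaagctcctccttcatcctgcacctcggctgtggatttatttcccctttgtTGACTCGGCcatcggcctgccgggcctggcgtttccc
PSME1: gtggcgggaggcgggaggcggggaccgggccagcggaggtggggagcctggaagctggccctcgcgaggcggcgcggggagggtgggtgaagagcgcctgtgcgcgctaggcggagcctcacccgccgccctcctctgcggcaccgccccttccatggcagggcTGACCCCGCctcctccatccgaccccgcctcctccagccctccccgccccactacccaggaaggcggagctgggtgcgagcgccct
PSMC2 holds 1 CCAAT match and PSMD14 holds 2, which overlap because CCAATTGG reads CCAAT on both strands. PSMD3 holds 1 CCAAT match, written as ATTGG, and 1 match to TGACNNNGC, and PSME1 holds 1 match to TGACNNNGC. The genes shown were picked by name and not by a rule. No match to either motif lay in the windows of PSMD11 and PSMD1, which fell more than PSMD3 at 72 h. The windows of PSMD2, PSMC1, PSMC4 and PSMC6 held none either. Those of PSMC3, PSMD6 and PSMD8 held 1 CCAAT match each, and that of PSMD12 1 match to TGACNNNGC.

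The table of promoters held 35 of the 41 proteasome genes, with 42 windows in all. TGACNNNGC was found in 11 of the 42 windows (26.2%), against 10.9% of all 35116 windows of the same length. CCAAT was in 15 (35.7%), against 32.0%, and CACGTG, the E-box bound by MYC proteins, in 3 (7.14%), against 6.34%. The 11 windows with TGACNNNGC belonged to 11 genes, of which PSMD3, PSMD12, PSMA4, PSMB3, PSME4, PSMD9, PSMG1 and PSMG2 were lower at 72 h, PSME1 was higher, and PSMB9 and PSMD5 lay below the filter. Among all 37 measured proteasome genes 32 were lower at 72 h, so most genes were lower whether or not they held a match. PSMD14, PSMC2, PSMD11 and PSMD1, with the greatest falls, held no match to TGACNNNGC. A match is a description of letters and not a site, and the windows did not enter any test.

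In the 20S core, all 6 measured α-ring genes were lower at 24, 48 and 72 h, with medians of -0.34, -0.50 and -0.62. Among all genes 5.72%, 17.7% and 22.7% were lower at these times. PSMA5 read 1338, 1293 and 1361 at 0 h, 1003, 995 and 888 at 24 h, and 802, 789 and 950 at 72 h, with no overlap with 0 h. Its change was -0.46, -0.60 and -0.65 (SE 0.08). PSMA1 went from 2136, 2021 and 2000.1 at 0 h to 1301, 1356 and 1425 at 72 h, a change of -0.59 (SE 0.08). The 72 h changes of the α subunits PSMA3, PSMA4, PSMA7 and PSMA2 were -0.71, -0.68, -0.47 and -0.45. The probe sets standing for PSMA1, PSMA7 and PSME3 are of a kind that may bind transcripts of other genes, and another PSMA7 probe set gave -0.85. When the probe sets of a gene were averaged, PSMA3 was not called at 24 h (-0.10) and 48 h (-0.21), nor PSMA5 at 72 h (-0.39). The further probe sets in these averages were dim, at 12.4 to 26.1 over all arrays for PSMA3 and 21 to 111 for PSMA5.

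The β ring holds structural and catalytic members. All 4 structural genes were lower at 48 and 72 h, beside 17.7% and 22.7% of all genes. At 24 h all but PSMB4 were lower, beside 5.72%. PSMB3 read 2414, 2180.4 and 2275 at 0 h, 1810, 1567 and 1574 at 48 h, and 1290, 1378 and 1440 at 72 h. All arrays from 24 h on lay below 0 h, and the 72 h arrays also below those at 48 h. The change was -0.26, -0.47 and -0.74 (SE 0.08, adjusted p = 4.8e-07 at 72 h). PSMB2, PSMB1 and PSMB4 stood at -0.71, -0.50 and -0.30 at 72 h. The 48 h call of PSMB4 was lost without 0 h replicate 1 (-0.20).

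Of the constitutive catalytic subunits, PSMB6 carries the caspase-like site, PSMB7 the trypsin-like site and PSMB5 the chymotrypsin-like site. All 3 were lower at 24 h, with -0.33, -0.23 and -0.35, beside 5.72% of all genes called lower. PSMB6 read 1453, 1471 and 1492 at 0 h and 953, 921 and 1096 at 72 h, no overlap, and its change went on to -0.52 at 48 h and -0.57 at 72 h (SE 0.08, adjusted p = 5.7e-06). PSMB7 stayed near its 24 h level, with -0.24 at 48 h and -0.29 at 72 h (SE 0.07). The calls of PSMB7 were lost at all 3 times under quantile normalisation and when the probe sets of a gene were averaged. The further PSMB7 probe set in that average was dim, at 17.7 to 53.7 over all arrays.

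PSMB5 read 2136, 2226 and 2279 at 0 h, 1911, 1800 and 1515 at 24 h, 1880, 1834 and 1992 at 48 h, and 2002, 1874 and 2331 at 72 h. Its arrays lay below 0 h at 24 h and 48 h, and at 72 h the highest array stood above all 3 arrays at 0 h. The change was -0.35 at 24 h (SE 0.09, adjusted p = 0.014), -0.22 at 48 h (adjusted p = 0.053) and -0.10 at 72 h (adjusted p = 0.34). The 24 h call was lost without 0 h replicate 3 (-0.33) and without 24 h replicate 3 (-0.25). The 48 h change was called at -0.32 after each array was centred on its median, and also in the fit with replicate number as a block. Array weights (-0.23), a fit of only the 2 times compared and a filter at the brightest 25% of probe sets also brought the call. So did leaving out 24 h replicate 1, 24 h replicate 3, 72 h replicate 2 or 72 h replicate 3, or all replicate 3 arrays (-0.23). The steps from 24 h to 48 h and from 48 h to 72 h were not called. Among the 27 measured constitutive subunits of the 20S core and 19S particle, PSMB5 was the only one not called lower at 72 h.

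Of the catalytic subunits that interferon induces to form the immunoproteasome, PSMB8 and PSMB9 lay below the filter and PSMB10 above it. PSMB8 read 0.4 to 1.1 over the 15 arrays and PSMB9 0.5 to 4.6, both below the filter, as was the testis subunit PSMA8 at 0.8 to 9.6. PSMB10 passed the filter, with 99.6, 105 and 100.4 at 0 h and 115, 80.2 and 135 at 72 h. The groups overlapped and the change was 0.08 (SE 0.17, adjusted p = 0.71). At 24 h and 48 h it was 0.16 and 0.14, neither called.

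**Figure D3:**
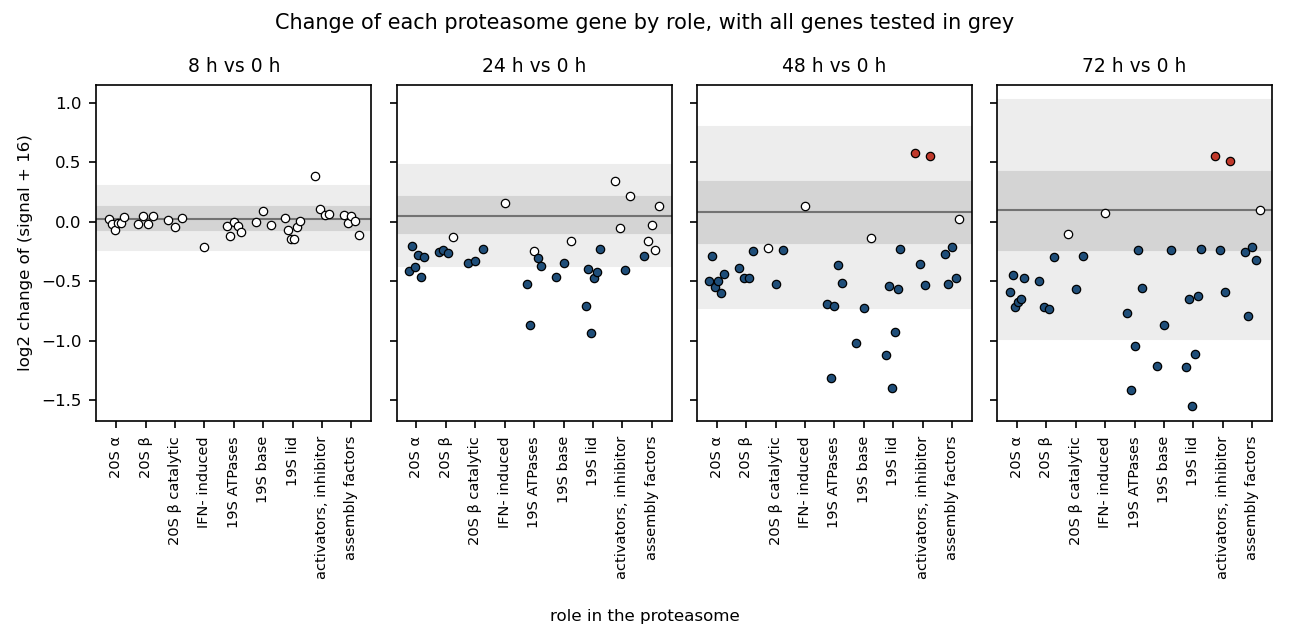
Change of log2(signal + 16) against 0 h (vertical axis) for each of the 37 proteasome genes (points) by role (horizontal axis), 1 panel per time; blue points are called lower, red points higher and open points not called. The grey line is the median of all 11774 genes, the dark band holds their middle 50% and the light band their middle 90%; at 72 h all 19S points are blue and the only red points are PSME1 and PSMF1.

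Among the activators and the inhibitor the directions differed. PSME4, the activator PA200, was lower, with 694, 740 and 720 at 0 h and 450, 453 and 517 at 72 h. Its arrays did not overlap at 24, 48 or 72 h, and the change was -0.41, -0.53 and -0.59 (SE 0.08, adjusted p = 4.2e-06 at 72 h). PSME3, the nuclear activator PA28γ, stood at -0.05 at 24 h, -0.35 at 48 h and -0.24 at 72 h (SE 0.07), lower at the last 2 times. Its other probe sets gave -0.63, -0.55 and -0.26 at 72 h, the first 2 called, so the fall of PSME3 was larger on those probe sets than on the one with the highest mean. Under quantile normalisation the 72 h call of PSME3 was lost (-0.11).

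PSMF1 encodes PI31, a protein that binds the 20S core and inhibits it in the test tube. It rose: 306, 319 and 274 at 0 h, 342, 363 and 347 at 24 h, 430.0, 470 and 441 at 48 h, and 446, 458 and 398 at 72 h. The arrays at 24 h and later lay above all arrays at 0 h. The change was 0.22 at 24 h (SE 0.09, adjusted p = 0.13), 0.56 at 48 h (adjusted p = 9.9e-05) and 0.51 at 72 h (adjusted p = 1.3e-04). Its other probe sets gave 0.24, 0.16 and 0.35 at 72 h, of which the first was called when all probe sets were tested singly.

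PSME1, the α subunit of the activator PA28, which interferon also induces, read 246, 194 and 131 at 0 h, 228, 280.2 and 234 at 8 h, 263, 252 and 203 at 24 h, 328, 259 and 269 at 48 h, and 252, 268 and 319 at 72 h. The 0 h arrays were spread widely, and the 48 h and 72 h arrays lay above all of them. The change was 0.58 at 48 h and 0.55 at 72 h (SE 0.16, adjusted p = 0.0081 and 0.0084), and 0.39 at 8 h and 0.34 at 24 h, not called. Without 0 h replicate 3, its lowest array, the change was 0.35 at 48 h and 0.33 at 72 h and neither was called. Without 0 h replicate 1 the 24 h change was 0.53 and was called. Without any replicate 3 array the change was 0.23 at 72 h, also not called. The rises of PSME1 and PSMF1 at 48 and 72 h were called also after quantile normalisation and after centring of the arrays.

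The assembly factors help the subunits come together and leave the finished particle. PSMG1, the chaperone that pairs with PSMG2 to build the α ring, fell late: 1620.4, 1690 and 1514 at 0 h, 1336, 1502 and 1461 at 24 h, 1122, 1098 and 1121 at 48 h, and 892, 961 and 913 at 72 h. All arrays from 24 h on lay below 0 h, and each group from 48 h on below the one before. The change was -0.16 at 24 h (SE 0.07, adjusted p = 0.15), -0.52 at 48 h and -0.79 at 72 h (adjusted p = 6.8e-08). Its partner PSMG2 stood at -0.03, -0.21 and -0.21, called at 48 and 72 h. Both calls of PSMG2 were lost under quantile normalisation, without 0 h replicate 1 and without 0 h replicate 2. The 48 h call was also lost without 48 h replicate 2 or 48 h replicate 3, and the 72 h call without 72 h replicate 1 or 72 h replicate 2, each at -0.21 to -0.17.

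PSMG3, whose product works with that of PSMG4, was lower at 48 h (-0.47) and 72 h (-0.32, SE 0.10), the latter not called without 0 h replicate 2 (-0.27). PSMG4 read 157, 143 and 144 at 0 h and 159, 164 and 154 at 72 h, with overlapping groups, and changed by 0.10 (SE 0.10, adjusted p = 0.45). PSMD9, a chaperone of the ATPase ring, stood at -0.29, -0.27 and -0.26 at 24, 48 and 72 h (SE 0.08). It was called each time, but at none of the 3 when the probe sets of a gene were averaged. The further PSMD9 probe set in that average was dim, at 20.4 to 46 over all arrays. The 24 h call of PSMD9 was also lost without 0 h replicate 1, 0 h replicate 3, 24 h replicate 1 or 24 h replicate 3. PSMD5, another chaperone of that ring, was below the filter on both of its probe sets, at 0.7 to 7.0 and 0.7 to 11.4. Of the 5 assembly factors measured, 1, 4 and 4 were lower at 24, 48 and 72 h, beside 5.72%, 17.7% and 22.7% of all genes.

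Probe sets were also tested singly. Of the 67 proteasome probe sets above the filter, fitted with all 27307, 31 were lower at 24 h, beside 4% of all probe sets, and none was higher, beside 4.68%. At 48 h 48 were lower and 2 higher, beside 13.8% and 20.8%, and at 72 h 51 were lower and 3 higher, beside 19.3% and 27.1%. At 8 h none was called, beside 0.212% lower and 0.0293% higher. For 19 genes several probe sets passed the filter. At 24 h 11 of the 19 were called, and 7 of those had a further probe set called the same way. At 72 h 18 were called, and 14 of those had a further probe set called the same way. No gene had probe sets called in opposite directions at any time against 0 h. The 12 proteasome probe sets below the filter read 0.4 to 23.5 over all arrays, 7 of them of genes that another probe set measured. PSMA6 and PSME2 are named only on probe sets that also name another gene and were not members.

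**Figure D4:**
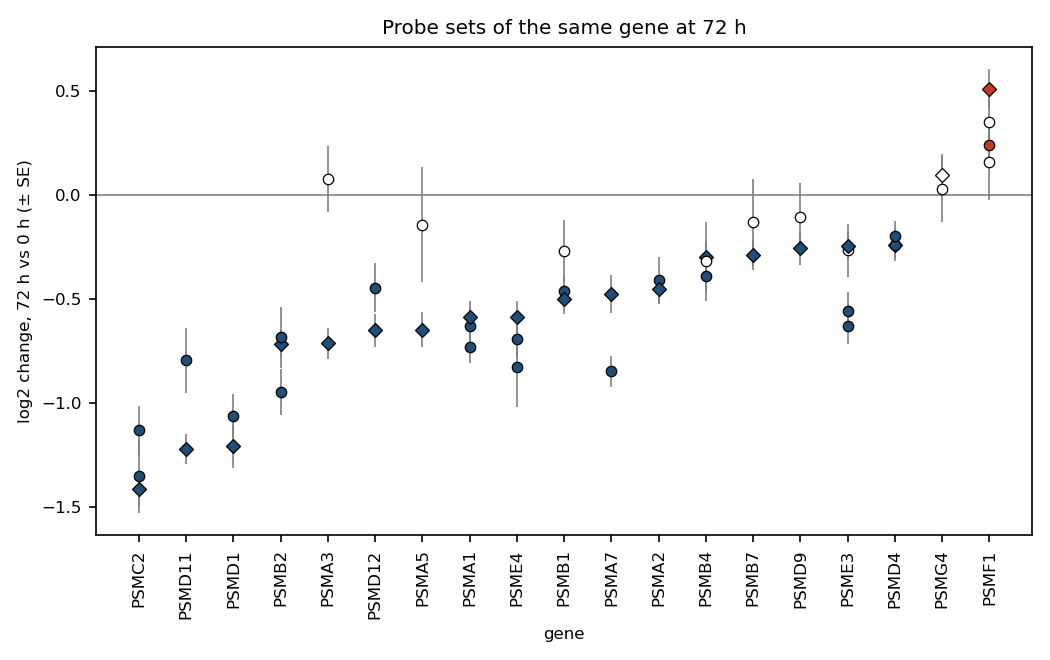
Change of log2(signal + 16) at 72 h against 0 h with its standard error for each probe set above the filter of the 19 genes with several. Diamonds mark the probe set that stands for the gene and circles the others; blue is called lower, red higher and open not called, and the second PSMD11 and PSMD12 probe sets (-0.79 and -0.45) fell less than the first (-1.22 and -0.65).

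Genes that share only the letters moved in other ways. PSMC3IP, a partner of the recombinases in meiosis, read 362, 345 and 340 at 0 h, 284, 318 and 288 at 24 h, 103, 111 and 87.8 at 48 h, and 63.3, 79.8 and 82.3 at 72 h. All arrays from 24 h on lay below 0 h, and the drop came between 24 h and 48 h, by 1.43 on the log2 scale. The change against 0 h was -0.22 at 24 h (adjusted p = 0.18), -1.65 at 48 h and -2.01 at 72 h (SE 0.11, adjusted p = 3.7e-11). PSMA3-AS1, an RNA named as antisense to PSMA3, rose from 153, 149 and 156 at 0 h to 324, 310 and 263 at 72 h, without overlap. Its change was 0.42, 0.77 and 0.90 at 24, 48 and 72 h (SE 0.11), and all 3 of its probe sets were called higher at 72 h. PSMA3 itself fell by 0.71 on the log2 scale at that time. PSMG3-AS1 stood at 0.86 at 72 h (SE 0.29, adjusted p = 0.017), with signals of 1.8 to 19.4 at 0 h and 26.4 to 37.6 at 72 h. It averaged 12, 9.63 and 13.8 at 0, 8 and 24 h, below the filter level. It passed the filter only through the later groups where it was high, so its call cannot be read as a test of a rise. PSMD6-AS2 and PSME3IP1 were not called, and PSMB8-AS1, PSMD7-DT and PSMD14-DT lay below the filter.

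Other genes that work with the proteasome were counted from lists. The shares of all genes to read these counts against are 5.72%, 17.7% and 22.7% lower and 7.74%, 26.3% and 32.8% higher at 24, 48 and 72 h. Among 14 proteasome-associated proteins, 5, 8 and 6 were lower and 0, 1 and 3 higher at 24, 48 and 72 h, with medians of -0.22, -0.35 and -0.20. UCHL5, a deubiquitinase of the 19S particle, and ADRM1, the ubiquitin receptor that recruits it, stood at -0.88 and -0.88 at 72 h (SE 0.08 and 0.11). POMP, which matures the β ring, stood at -0.53, and USP14, another deubiquitinase of the particle, at -0.49. After each array was centred on its own median, 6 were lower and 0 higher at 72 h. The 3 called higher without centring lay below the share of all genes.

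Transcription factors of proteasome genes and the proteins that process or degrade them made a list of which 6 genes were measured. Of these 1, 1 and 1 were lower and 0, 1 and 2 higher at 24, 48 and 72 h, and at 72 h both counts lay near the shares of all genes. NFE2L1, the factor that raises proteasome genes when the protease is inhibited, read 785, 856 and 953 at 0 h and 1006, 967 and 1189 at 72 h. Its 72 h arrays lay just above those at 0 h, and its change of 0.28 missed the threshold (SE 0.13, adjusted p = 0.086). At 24 h and 48 h it was -0.16 and -0.12, with overlapping groups. NFE2L2, the factor of the oxidative stress response, read 1191, 1210.3 and 1276 at 0 h and 1450, 1552 and 1616 at 72 h. Its groups did not overlap, and it was higher by 0.32 (SE 0.09, adjusted p = 0.0036). KEAP1, which targets NFE2L2 for degradation, stood at -0.37, and NGLY1, an enzyme that activates NFE2L1, at 0.22. With centred arrays no gene of this list was called higher at 72 h.

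Upstream of the protease, 4, 6 and 5 of 10 shuttle factors and parts of the VCP unfoldase were lower at 24, 48 and 72 h, and 0, 0 and 1 higher. With centred arrays 7 were lower and 0 higher at 72 h. UFD1, a cofactor that brings ubiquitinated proteins to VCP, was 2.01-fold lower at 72 h (adjusted p = 7.5e-10), and the log2 change was -0.73 for the shuttle factor UBQLN1, -0.73 for the VCP cofactor NSFL1C and -0.70 for VCP itself. The median of the list was -0.15, -0.35 and -0.46. None of 3 measured ubiquitin and E1 enzyme genes was called at 24 or 72 h, and at 48 h 1 was higher, the E1 enzyme gene UBA6, which was not called after centring.

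Ubiquitin ligases of the cell cycle were counted in the same way. Of 15 anaphase-promoting complex genes 0, 3 and 6 were lower and 0, 1 and 0 higher at 24, 48 and 72 h, with a median of -0.15 at 72 h. The count of 3 at 48 h lay near the share of all genes, and with centred arrays 5 were lower and 0 higher at that time. CDC20, the coactivator used in mitosis, stood at -2.88 (SE 0.15), while the subunits ANAPC11, ANAPC10 and CDC26 stood at -0.45, -0.42 and -0.40. Of 11 SCF and cullin ligase genes 1, 3 and 6 were lower and 1, 2 and 3 higher, with the counts of higher genes at 48 and 72 h below the shares of all genes. FBXO5, an inhibitor of the anaphase-promoting complex, stood at -1.81 at 72 h and RBX1, the RING subunit, at -0.46, while the substrate receptors FBXW7 and BTRC stood at 1.26 and 0.51. Of 9 COP9 signalosome genes, whose complex resembles the 19S lid, 2, 1 and 4 were lower and none higher, with COPS3 at -0.79, COPS6 at -0.41, COPS4 at -0.31 and COPS8 at -0.30 at 72 h. With centred arrays the COP9 counts were 1, 4 and 4 lower.

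Of 11 MHC class I and interferon genes, which use or induce the immunoproteasome, 5 passed the filter. B2M, the light chain of MHC class I, fell, with changes of -1.25, -1.53 and -1.74 at 24, 48 and 72 h (SE 0.08, adjusted p = 7.6e-12 at 72 h). IRF1, an interferon-induced activator of PSMB9, stood at 0.33 at 72 h (SE 0.14, adjusted p = 0.046) with overlapping arrays, and was not called after centring.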

How the data were processed

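Total RNA of IMR32 cells was hybridised to 15 Affymetrix U133 Plus 2.0 arrays, 3 per time. Per the labels, the authors' deposited values are linear MAS5 signal intensity, made with MAS5 and GCOS (versions not given in the sources used here) and scaled to a trimmed mean (2% at each end) of 100.01. They were not rescaled. Precision is limited by the 3 arrays per time.

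The members, gene lists and tests were chosen with earlier results of these data known. Values were taken as log2(signal + 16). Probe sets with a mean log2 value at or above the median of those that are not controls were kept (27307), and each gene was represented by its probe set of highest mean (11774 genes). A single limma model over all times (version 3.58.1, R 4.3.3, lmFit, then eBayes with trend=TRUE) was used, with Benjamini-Hochberg adjustment over all genes at 0.05. A second fit used all 27307 probe sets. The test was checked on simulated data.

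The text gives values for up to 10 members with the greatest change past the threshold at each time and without overlap, for all catalytic, activator, inhibitor and assembly genes, and for up to 4 called genes of each list, with NFE2L1, NFE2L2 and CDK2. The remaining subunits, the letters-only genes and the 3 called from 48 h to 72 h were named so that each is accounted for, after their values were seen. PSMD10 was left out by the rule. Symbols came from GEO's platform annotation, and all 49 matched RefSeq.

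Equal replicate numbers paired the arrays by the correlation of their deviations (all 3 pairs above 0.1) between 0 h and 48 h (r of 0.12 to 0.21) and between 48 h and 72 h (r of 0.12 to 0.35). Elsewhere the lowest pair was below 0.1. Alternatives changed the pseudocount, scaling, filter, probe sets per gene, variance prior, array weights, arrays fitted, a replicate block and an added fold threshold, and left out each array. A fit without any replicate 3 array was added after the data were seen. Promoters (RefSeq, GRCh38.p14) were read and figures drawn in Python 3.11.15 (matplotlib 3.10.9, pandas 2.3.3).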

Additional observations from a re-analysis of the deposited data

How the results depend on the processing

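No result reversed. The counts of proteasome genes called at 48 and 72 h against 0 h, and over the whole time course, kept within 1.5 times under all alternatives but the added log2 change of 0.5. That threshold left 4 of 26 genes at 24 h, 18 of 33 at 48 h, 3 of 21 from 8 h to 24 h, 1 of 12 from 24 h to 48 h and 0 of 3 from 48 h to 72 h, and 6 of 31 and 29 of 50 probe sets at 24 and 48 h. Fitting only the 2 times compared gave 10 genes from 8 h to 24 h and 1 from 48 h to 72 h. Array weights gave 21 from 24 h to 48 h, 7 from 48 h to 72 h and 1 probe set at 8 h. From 48 h to 72 h, centred arrays gave 1 and eBayes with trend=FALSE gave 0. Without any replicate 3 array, chosen after seeing the data, 13 genes were called from 8 h to 24 h and 1 probe set at 8 h. Leaving out 1 array gave 16 to 26 genes at 24 h, 30 to 34 at 48 h, 32 to 34 at 72 h, 11 to 22 from 8 h to 24 h, 10 to 15 from 24 h to 48 h, 0 to 4 from 48 h to 72 h, 0 to 0 at 8 h and 33 to 35 over the time course. For probe sets it gave 0 to 1, 21 to 36, 43 to 52 and 49 to 54 at 8, 24, 48 and 72 h. The cause of these shifts was not tested, beyond fewer arrays or a stricter threshold where the alternative itself brings them.

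With replicate number as a block, 26, 34 and 34 genes were called at 24, 48 and 72 h against 26, 33 and 34 without it, and of 148 gene-by-time results, 93 of them called, only that of PSMB5 at 48 h changed sides. Quantile normalisation called 21, 30 and 28 genes and lost 14 of the 93 calls. Averaging the probe sets of a gene lost 11. Centring called 26, 35 and 34, at an all-gene median of -0.01 in place of 0.10 at 72 h. Signals near the filter level bound what could be seen of PSMB8, PSMB9, PSMD5 and PSMA8.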
